A study of Mus musculus with 6 samples.

Results

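The genes described here are 10 immediate-early and AP-1 genes, chosen by name from the 28880 genes of a mouse liver RNA-seq table. They are the AP-1 subunit genes Fos, Fosb, Fosl2, Jun, Junb and Jund, the transcription factor genes Egr1 and Myc, and the early response genes Ier2 and Ier3. Livers came from male wild-type C57BL/6J mice aged 6 to 8 weeks, 3 exposed to ethanol and 3 controls, with 1 library per mouse and all 6 libraries labelled as a single batch. The ethanol mice had been fasted for 12 h, received 6 g/kg of 50% ethanol once by mouth, and were sampled 24 h later. The controls received no ethanol. The sources used here do not say whether the controls were fasted or gavaged, so ethanol, fasting and gavage cannot be told apart as the condition behind any difference between the groups.

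AP-1 is a family of dimeric transcription factors built from Jun and Fos proteins, which pair through a leucine zipper and bind DNA through the basic region beside it. Immediate-early genes can be transcribed without new protein synthesis, usually as a short burst when MAP kinases, serum response factor or CREB are activated, and many of their transcripts are short-lived. In the liver they are known for their rapid induction after partial hepatectomy, injury and stress, while Jund is also expressed in the resting organ.

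All 10 genes were higher in ethanol livers, with fitted log2 fold changes from 2.52 (Fos) to 6.33 (Egr1), and none was lower. A gene was called where edgeR's quasi-likelihood test, adjusted over the 16717 genes tested, gave a p under 0.05 together with a change of more than 1 on the log2 scale. By these limits 10.4% of the genes tested were called higher and 13.8% lower. The 3 ethanol libraries lay above the 3 control libraries in CPM (counts scaled to a common library size, after TMM scaling for library composition) for all 10 genes, and for 28.0% of the genes tested. Fosb passed the filter on low counts through the ethanol libraries, where it was high, so its call is not independent of that filter. The call of Fos was lost in 5 of the 6 fits that left out 1 library, and it held in 4 of all 16 alternative settings, whereas the other 9 genes were called in each setting that tested them. In bulk tissue, a change in the number of cells of a type and a change in RNA per cell cannot be told apart.

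**Figure D1:**
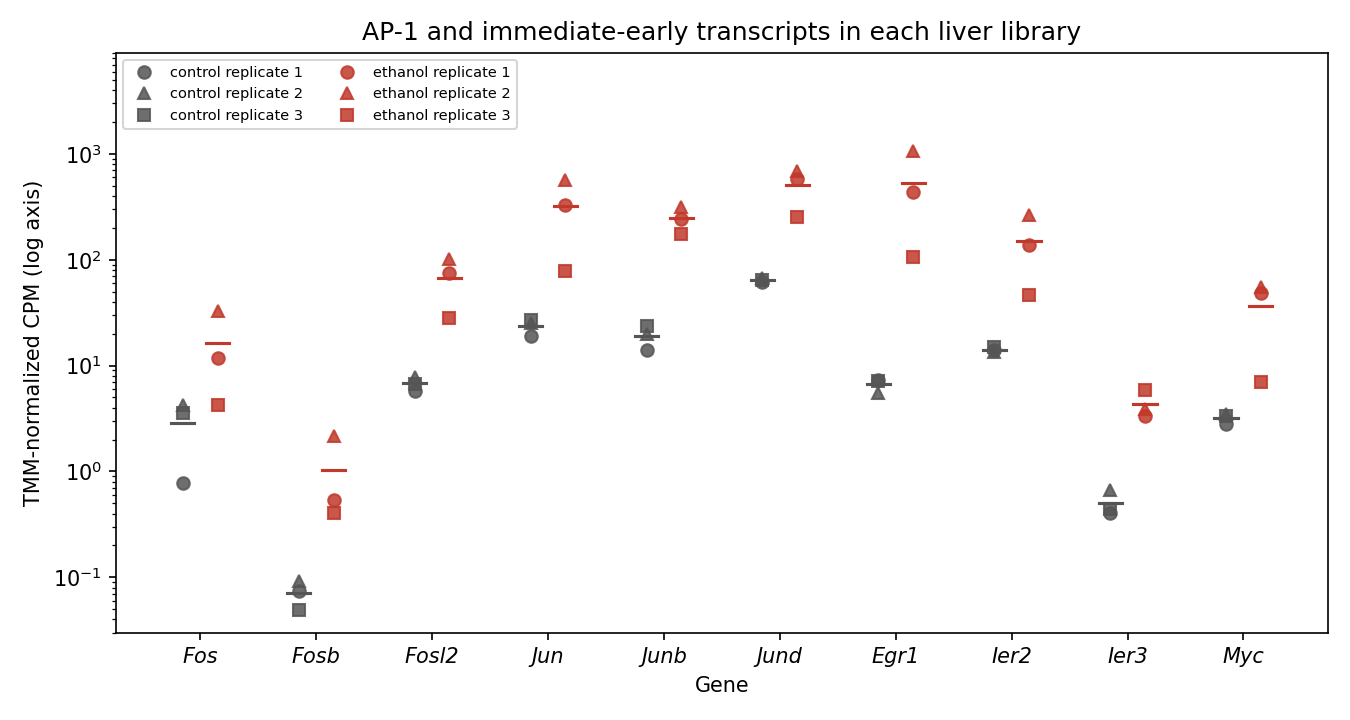
TMM-normalized CPM (log axis) of the 10 genes in the 3 control libraries (grey) and the 3 ethanol libraries (red), with the replicate shown by the symbol and the group mean by a bar. Ethanol replicate 2 is highest and ethanol replicate 3 lowest for 9 of the 10 genes, and Fos is the gene whose groups come closest, with 4.215 CPM in ethanol replicate 3 and 4.213 in control replicate 2.

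Promoter sequences of Fos, Jun and Junb are shown because letters of the cyclic AMP response element, through which CREB, ATF and AP-1 proteins act, were found in them. RefSeq promoters (GRCm38.p6) were matched for 7 of the 10 genes. Egr1, Ier2 and Myc had no match and were not searched. The 250 bases before the start of each matched gene were searched on both strands with motifs chosen after the expression values were known. The sequences below run 5′ to 3′ on the gene's own strand up to the base before its start, from chr12:85473640-85473889 (plus strand) for Fos, chr4:95052223-95052472 (minus strand) for Jun and chr8:84978749-84978998 (minus strand) for Junb. Capitals mark TGACG, the core of the cyclic AMP response element, in Fos and Junb, and TGACATCA, a variant of that element, in Jun.
Fos: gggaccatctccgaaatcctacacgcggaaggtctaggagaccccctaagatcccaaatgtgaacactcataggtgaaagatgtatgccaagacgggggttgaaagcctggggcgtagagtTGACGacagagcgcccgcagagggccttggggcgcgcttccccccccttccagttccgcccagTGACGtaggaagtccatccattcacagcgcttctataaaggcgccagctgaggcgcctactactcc
Jun: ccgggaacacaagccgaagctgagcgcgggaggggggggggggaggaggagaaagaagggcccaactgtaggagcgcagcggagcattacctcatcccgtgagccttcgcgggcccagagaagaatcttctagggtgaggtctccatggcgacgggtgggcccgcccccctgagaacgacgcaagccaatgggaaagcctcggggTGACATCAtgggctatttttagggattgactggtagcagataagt
Junb: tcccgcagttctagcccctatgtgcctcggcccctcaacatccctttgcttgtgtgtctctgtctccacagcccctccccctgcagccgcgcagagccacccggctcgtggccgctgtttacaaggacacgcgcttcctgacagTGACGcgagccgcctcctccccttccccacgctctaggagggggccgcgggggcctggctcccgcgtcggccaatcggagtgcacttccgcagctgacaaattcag
The Fos promoter held TGACG 129 and 66 bases before the start and TATAAA 33 bases before it. The Junb promoter held TGACG 106 bases and CCAAT 36 bases before the start. In the Jun promoter, TGACATCA began 45 bases and CCAAT 65 bases before the start. Fosb, the fourth gene with such letters, held TGACG at 60 bases, and Ier3 held CCAAT at 244 and 175 bases. Of 32851 RefSeq promoters, 17.8% held TGACG, 33.8% CCAAT, 12.4% TATAAA and 2.93% TGACATCA. TGACTCA, the AP-1 heptamer, was in none of the 7 promoters and in 4.46% of all, and TGACGTCA, which contains TGACG, was in none of the 7 and in 1.55% of all. The CArG box, the element bound by serum response factor, was in none of the 7 windows and in 1.47% of all. Egr1 was not among the 7, and a CArG box further upstream than 250 bases would not have been found. These are matches of letters within the window and say nothing about binding.

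The Jun subunits carried nearly all of the AP-1 transcript and were measured with high counts. Jun (ENSMUSG00000052684, chromosome 4, 94937271 to 94940459 on the minus strand, in the coordinates of the deposited table) encodes c-Jun, the strongest transactivator among the Jun proteins, and has a single exon in GENCODE M21, as do Junb, Jund and Ier2. It was at 332.5, 563.8 and 78.2 CPM in ethanol mice 1 to 3 and at 19.1, 25.1 and 27.0 CPM in control mice 1 to 3. The lowest ethanol mouse still lay above the highest control mouse, although the ethanol mice differed far more among themselves than the controls did. The log2 fold change was 3.78 (SE 0.658, 13.7-fold, adjusted p = 0.00396 by edgeR's quasi-likelihood test), and it was 3.12 without ethanol mouse 2.

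Junb (ENSMUSG00000052837, chromosome 8, 85701113 to 85705347, minus strand) encodes a Jun protein that can also restrain c-Jun. It reached 245.3, 315.6 and 176.8 CPM with ethanol against 14.0, 20.0 and 23.5 CPM in controls. The ethanol values were close together, and Junb had the smallest adjusted p of the 10 genes, with a log2 fold change of 3.68 (SE 0.283, adjusted p = 0.000198, edgeR). In log2 CPM its SD was 0.419 in ethanol mice and 0.379 in controls.

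Jund (ENSMUSG00000071076, chromosome 8, 71151599 to 71153265, plus strand) encodes the Jun protein typical of quiescent cells. It was at 585.4, 695.4 and 255.8 CPM with ethanol and at 61.8, 66.6 and 64.3 CPM in controls. The controls were almost level, with a ratio of 1.08 between the highest and the lowest, and every ethanol mouse was well above them. The log2 fold change was 2.995 (SE 0.353, 7.97-fold, adjusted p = 0.0009045, edgeR).

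All 3 Jun loci overlap another gene on the opposite strand in the deposited table, and the strand setting of the counting is not given in the sources used here. Junos, which overlaps Jun, had 2, 6 and 4 counts with ethanol and 42, 18 and 13 in controls, so it was lower where Jun was higher. Prdx2, a peroxiredoxin gene that overlaps Junb, had 5584 to 6831 counts with ethanol and 5135 to 6563 in controls. Gm11175, within Jund, had at most 28 counts in any library. The other 7 genes overlapped no annotated gene.

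The Fos subunits were higher too, but at much lower levels, and with the weakest call. Fos (ENSMUSG00000021250, chromosome 12, 85520664 to 85524047, plus strand) encodes c-Fos, which needs a Jun partner to bind DNA. It was at 11.9, 33.0 and 4.215 CPM with ethanol and at 0.778, 4.213 and 3.58 CPM in controls. Ethanol mouse 3 was level with control mouse 2, and control mouse 1 stood below the other controls. The log2 fold change was 2.52 (SE 0.845, 5.74-fold, adjusted p = 0.0465, edgeR). In FPKM, the deposited fragment counts scaled to transcript length and library size, without TMM, ethanol mouse 3 (1.27) was below control mice 2 (2.10) and 3 (1.78), so the groups overlapped for Fos and for none of the other 9 genes. Without ethanol mouse 2 the log2 fold change of Fos was 1.496 (adjusted p = 0.159, edgeR), without control mouse 1 it was 2.07 (adjusted p = 0.114), and without ethanol mouse 3 it was 2.99 (adjusted p = 0.00699).

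Fosb (ENSMUSG00000003545, chromosome 7, 19036621 to 19043976, minus strand) encodes a second Fos protein and was the least abundant of the 10 genes. It had 31, 132 and 22 counts with ethanol and 7, 7 and 4 counts in controls, or 0.539, 2.16 and 0.403 CPM against 0.0746, 0.0919 and 0.0486 CPM. The groups did not overlap, and the ethanol mean was set largely by mouse 2. The log2 fold change was 3.82 (SE 0.805, adjusted p = 0.00833, edgeR), and it was 2.69 without ethanol mouse 2.

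Fosl2 (ENSMUSG00000029135, chromosome 5, 32293145 to 32315186, plus strand) encodes Fra-2, a Fos protein without the strong activation domain of c-Fos. It was at 74.3, 101.0 and 28.1 CPM with ethanol and at 5.72, 7.85 and 6.76 CPM in controls. All ethanol mice were above all controls by a wide margin, with a log2 fold change of 3.32 (SE 0.449, adjusted p = 0.00150, edgeR). Fosl1, which encodes Fra-1 and is not one of the 10 genes, had 0, 6 and 1 counts with ethanol and 0 in each control, and was not tested.

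Egr1 showed the largest change of the 10 genes. Egr1 (ENSMUSG00000038418, chromosome 18, 34992876 to 34998037, plus strand) encodes a zinc finger transcription factor that is a textbook target of serum response factor. It was at 435.9, 1059 and 106.0 CPM with ethanol and at 7.30, 5.55 and 7.09 CPM in controls. The lowest ethanol mouse exceeded every control many times over, while ethanol mice 2 and 3 differed from each other by a ratio of 9.99. The log2 fold change was 6.33 (SE 0.850, 80.2-fold, adjusted p = 0.00147, edgeR), which ranked 65 of 16717 genes by fold change. Leaving out 1 library gave log2 fold changes from 5.35 to 6.82.

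Ier2 and Ier3 share a name but not their pattern over mice. Ier2 (ENSMUSG00000053560, chromosome 8, 85387960 to 85389483, minus strand), a single-exon gene for a small nuclear protein, was at 136.5, 265.8 and 46.5 CPM with ethanol and at 14.0, 13.5 and 15.0 CPM in controls. Its log2 fold change was 3.40 (SE 0.573, adjusted p = 0.00350, edgeR), or 2.70 without ethanol mouse 2. Ier3 (ENSMUSG00000003541, chromosome 17, 36132576 to 36133815, plus strand), known as IEX-1, a regulator of apoptosis under stress, was at 3.35, 3.89 and 5.86 CPM with ethanol and at 0.405, 0.669 and 0.437 CPM in controls. Ier3 was the only one of the 10 genes that was highest in ethanol mouse 3, and with Junb it varied least among the ethanol mice, with an SD of 0.416 in log2 CPM. Its log2 fold change was 3.12 (SE 0.343, adjusted p = 0.000698, edgeR).

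Myc (ENSMUSG00000022346, chromosome 15, 61857240 to 61862199, plus strand) encodes c-Myc, which acts with its partner Max on genes of growth and ribosome production. It was at 48.4, 54.9 and 6.98 CPM with ethanol and at 2.81, 3.49 and 3.34 CPM in controls. Ethanol mice 1 and 2 were similar, and ethanol mouse 3, though far below them, was 1.12 above the control mean on the log2 scale and above every control. The log2 fold change was 3.52 (SE 0.694, 11.4-fold, adjusted p = 0.00654, edgeR), and without ethanol mouse 3 it was 4.02.

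**Figure D2:**
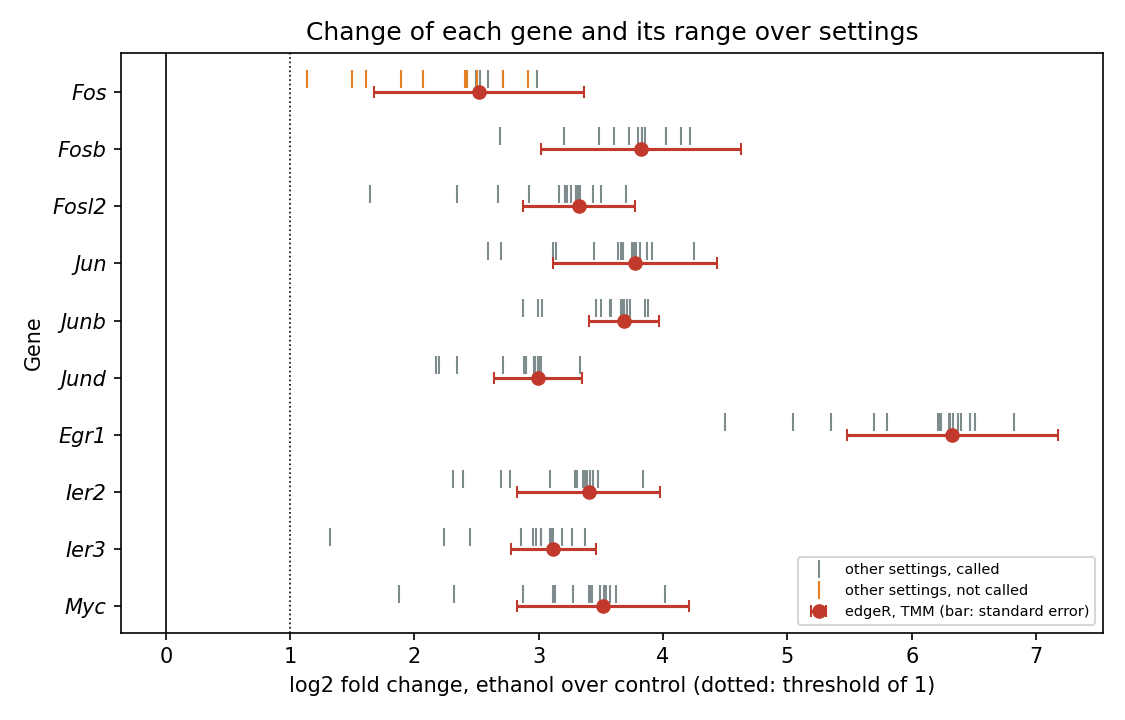
Fitted log2 fold change of ethanol over control for the 10 genes (red points, with bars for the standard error) and under the other settings (ticks above each point, orange where the gene was not called). The ticks from limma are on the scale of log2(FPKM + 1) or log2(FPKM + 0.1), without TMM scaling, and the added constant understates low genes. They lie lower for abundant genes too, such as Jund, at 2.18 and 2.20 against 2.995. All values lie right of 0, and Fos alone, from 1.14 to 2.99, has settings in which it was not called.

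The ethanol mice differed in how far these genes rose, in a shared order. Relative to the control mean, the median log2 difference over the 10 genes was 3.36 in ethanol mouse 1, 4.07 in ethanol mouse 2 and 2.02 in ethanol mouse 3. For 9 of the 10 genes, all but Ier3, the level was highest in mouse 2, next in mouse 1 and lowest in mouse 3. That order was found in 457 of the 1738 genes called higher (26.3%) and in 21.4% of the genes tested. These values describe the same 3 mice for every gene, so the genes are not separate observations of it. The ratio of ethanol mouse 2 to mouse 3 was 9.99 for Egr1, 7.87 for Myc, 7.82 for Fos, 7.21 for Jun, 5.72 for Ier2 and 5.35 for Fosb. It was smaller for Fosl2 (3.60), Jund (2.72) and Junb (1.79), and below 1 for Ier3 (0.664).

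Spread among ethanol mice was larger than among controls for each of the 10 genes, as it was for 68.6% of the genes called higher and 74.0% of the genes tested. The median SD of log2 CPM over the 10 genes was 1.27 with ethanol and 0.245 in controls. Over all genes called higher the medians were 0.375 and 0.188. Fos was the exception among the controls, with an SD of 1.34 that came from control mouse 1.

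Compared per length, in FPKM, the order of the 10 genes differed between the groups. In controls, Jund led with 45.5 ± 1.63 FPKM (SD, n = 3), above the libraries of all others. Ier2 (10.9 ± 0.553), Junb (9.80 ± 2.41) and Jun (8.77 ± 1.49) followed, each overlapping the next. Egr1 (1.75 ± 0.252), Fos (1.42 ± 0.914) and Myc (1.38 ± 0.149) formed the next overlapping run. Lower by mean came Fosl2 (0.824 ± 0.127), Ier3 (0.520 ± 0.154) and Fosb (0.0124 ± 0.00319), whose libraries did not overlap each other, although those of Fos, from 0.383 to 2.10 FPKM, spanned Fosl2 and Ier3.

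With ethanol, Jund was still highest by mean (230.0 ± 109.8 FPKM), but Egr1 had moved from the fifth to the second place (90.6 ± 85.4). Its libraries, from 16.9 to 184.2 FPKM, overlapped those of Jund, Junb (79.8 ± 26.1), Jun (77.0 ± 60.2) and Ier2 (74.3 ± 57.7). Jund was the highest of the 10 genes in each ethanol mouse (254.6, 325.5 and 110.0 FPKM). The order of Egr1, Junb, Jun and Ier2 does not exceed the spread between mice. A gap then separated Ier2 from Myc (10.2 ± 7.36). Fos (5.29 ± 5.03), Fosl2 (5.26 ± 3.05) and Ier3 (2.84 ± 0.797) overlapped their neighbours in rank, and Fosb (0.124 ± 0.125) was lowest and separate.

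The AP-1 transcript pool, taken as the summed FPKM of the Jun and Fos subunit genes with Fosl1 included, was larger with ethanol. The Jun subunits summed to 407.4, 570.5 and 182.7 FPKM with ethanol and to 58.1, 66.6 and 67.3 FPKM in controls, a ratio of means of 6.04. Without ethanol mouse 2 that ratio was 4.61. The Fos subunits summed to 9.28, 19.4 and 3.40 FPKM with ethanol and to 1.09, 3.07 and 2.61 FPKM in controls, a ratio of 4.73, which was 2.81 without ethanol mouse 2. Neither sum overlapped between the groups, and both gave p = 0.1 in a two-sided exact permutation test, the smallest p that 3 mice against 3 allow. After TMM scaling, which left out Fosl1 because it was not tested, the ratios were 9.50 and 7.33.

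The composition of that pool is given as each gene's share of the summed FPKM. Jund made up 61.1%, 55.2% and 59.1% of the pool with ethanol and 74.0%, 67.6% and 64.9% in controls, and the groups did not overlap (58.5% ± 3.01 against 68.9% ± 4.68, SD, n = 3, exact permutation p = 0.1). Junb made up 18.6%, 18.2% and 29.6% with ethanol against 12.2%, 14.7% and 17.1% in controls, again without overlap (exact permutation p = 0.1). The difference in the Junb share was 7.44 percentage points, and it was 3.69 without ethanol mouse 3. The share of Jun overlapped, since it was 18.1% and 23.4% in ethanol mice 1 and 2 but 9.45% in mouse 3, against 12.0% to 14.2% in controls (exact permutation p = 0.4). Junb thus held more of the pool than Jun in ethanol mouse 3, narrowly in ethanol mouse 1 and in each control. Jun held more in ethanol mouse 2 alone. The Fos subunits together made up 1.83% to 3.28% with ethanol and 1.85% to 4.40% in controls (exact permutation p = 0.3), and none of these shares could have passed 0.05 with 3 mice a group.

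**Figure D3:**
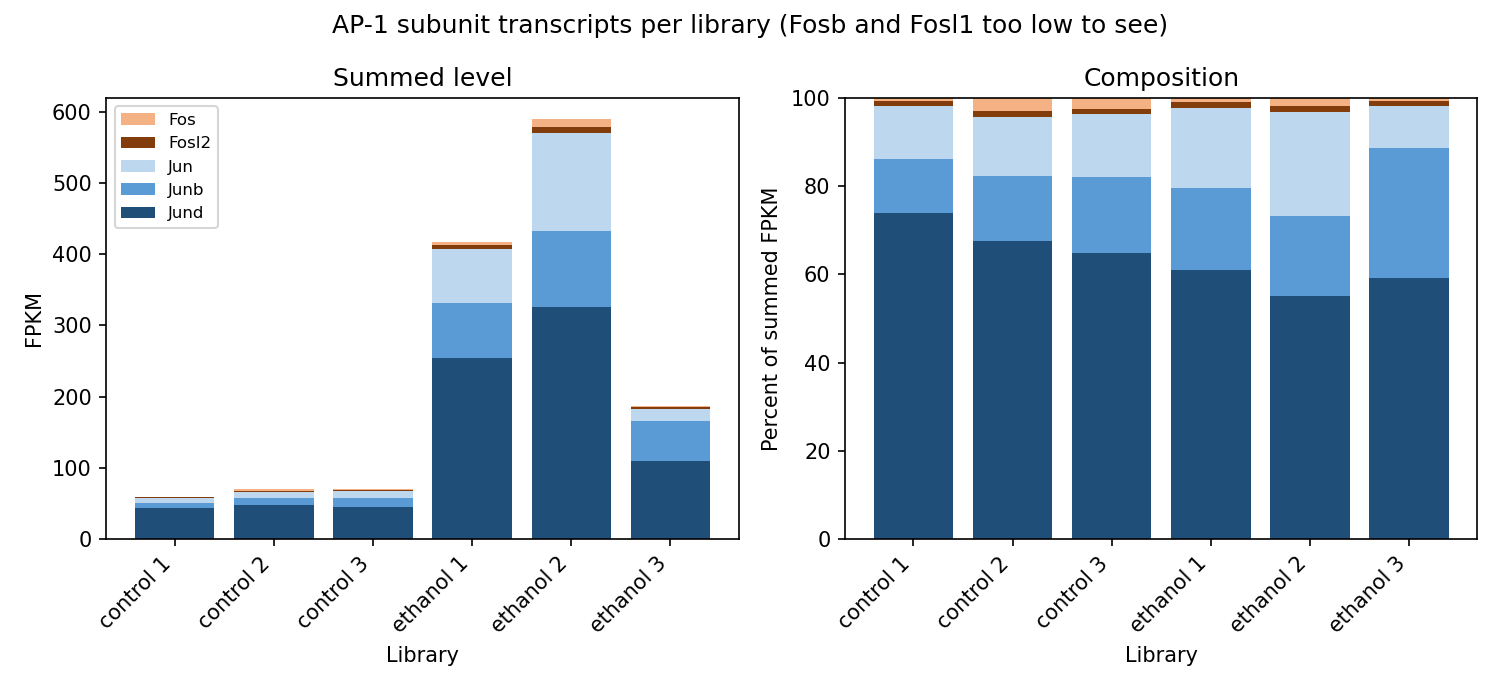
AP-1 subunit transcripts in each library as stacked FPKM (left) and as percent of the summed FPKM (right). The sum is 186.1 to 589.8 FPKM with ethanol and 59.2 to 69.9 in controls, and the Jund share is 55.2% to 61.1% against 64.9% to 74.0%.

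Among 13 other genes of the AP-1, ATF and small Maf families, 11 were tested. Of these, 4 were called higher and 1 lower, where 10.4% and 13.8% of the genes tested were. The median log2 fold change of the 11 was -0.23, where that of all genes was -0.04. With library size alone 4 were higher and 2 lower (median -0.91), as without ethanol mouse 3 (median -0.27). Limma on log2(FPKM + 1) called 3 higher and 0 lower. Atf3, a stress-induced ATF that dimerizes with Jun proteins, was at 225.6, 365.2 and 10.8 CPM with ethanol and at 0.788, 1.97 and 0.668 CPM in controls. Like Myc it was far lower in ethanol mouse 3 than in the other ethanol mice, and its log2 fold change was 7.465 (SE 1.32, adjusted p = 0.00418, edgeR), from 6.71 without ethanol mouse 2 to 8.10 without control mouse 2. Maff (log2 fold change 5.09, or 4.43 without ethanol mouse 2) and Mafk (2.06), small Maf genes, and Jdp2 (2.78), which encodes an AP-1 repressor, were also called higher. All 4 had the order of ethanol mice that 9 of the 10 genes had. Atf7, named after its value was seen, was the gene called lower (-1.25).

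Of 33 other immediate-early genes, 27 were tested. Against 10.4% and 13.8% of all genes tested, 19 of the 27 were called higher and none lower, with a median log2 fold change of 1.88. At an unadjusted p under 0.05, edgeR put 1 of them lower, DESeq2 called 1 lower, limma on log2(FPKM + 1) called 11 higher and 2 lower, and with library size alone in place of TMM edgeR called 15 higher and 1 lower. The largest changes were in Gadd45b (7.59) and Gadd45a (7.34), DNA damage and stress response genes, in Btg2 (5.82), an antiproliferative gene, and in Csrnp1 (4.62), an AXIN1-induced nuclear protein gene. Gadd45b was at 283.7, 327.1 and 50.5 CPM with ethanol and at 0.820, 1.42 and 1.21 CPM in controls. Btg2 was at 799.1, 1348 and 244.5 CPM against 8.91, 16.7 and 16.7 CPM, and its log2 fold change was 5.21 without ethanol mouse 2. Of the 19 genes, 14 had the order of ethanol mice seen for 9 of the 10 genes, and 15 were lowest in ethanol mouse 3, as were 47.8% of all genes called higher.

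Some immediate-early genes did not pass the test, and the following were picked after their values were seen. Nr4a1, an orphan nuclear receptor gene, was at 40.8, 74.2 and 8.15 CPM with ethanol and at 5.87, 43.3 and 36.6 CPM in controls (log2 fold change 0.52, SE 0.869, adjusted p = 0.652, edgeR). Its groups overlapped, and as for Fos, control mouse 1 was far below the other controls. Ccn1 and Ccn2, matricellular protein genes regulated through YAP and serum response factor, were at -0.63 (SE 0.577, adjusted p = 0.407) and -1.34 (SE 0.520, adjusted p = 0.0746) by edgeR.

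Of 26 genes for the kinases and factors upstream, 3 were called higher and 2 lower, where 10.4% and 13.8% of the genes tested were. The median log2 fold change was 0.26. With library size alone 2 were higher and 5 lower (median -0.41), and it was 5 and 1 both with the trend with transcript length removed and without ethanol mouse 1. Map3k5 (2.27), which encodes the stress-activated kinase ASK1, Map2k3 (2.03), which encodes a p38 activator, and Mapk14 (1.12), which encodes p38α, were called higher, Mapk14 not without ethanol mouse 3. Elk3 (-1.39), a ternary complex factor gene, and Map2k7 (-1.01), which encodes a JNK activator, were called lower, Elk3 being among the largest 4 by size and Map2k7, whose call was lost in 3 of the 6 fits that left out 1 library, named after its value was seen. Srf, which encodes serum response factor, was at -0.31 (SE 0.185, adjusted p = 0.22, edgeR). Among 9 genes for turnover and corepression of these factors, such as the ubiquitin ligase gene Fbxw7 and the Egr1 corepressor genes Nab1 and Nab2, none was called in either direction by edgeR, nor by DESeq2 or limma on log2(FPKM + 1), with all 6 libraries. Without ethanol mouse 3, edgeR called 1 higher, and at an adjusted p under 0.05 with no limit on the size of the change 1 was higher. At an unadjusted p under 0.05, edgeR put 2 of the 9 higher and 0 lower, and limma put 0 higher and 7 lower.

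Of 12 other genes of the Myc network, 2 were called higher and 1 lower, where 10.4% and 13.8% of the genes tested were, and without control mouse 3 it was 4 higher and 1 lower. Among them, Mnt (1.40), which encodes a Max-binding repressor, and Mlxip (1.04), a nutrient-sensing factor gene, were called higher, and Mlxipl (-1.17), which encodes the carbohydrate response factor ChREBP, was called lower. The median of the 12 was 0.26 on the log2 scale (-0.41 with library size alone, which called 0 higher and 3 lower). With the trend with transcript length removed, 3 were called higher and 0 lower, so that of Mlxipl was lost. The call of Mlxip was lost without ethanol mouse 2. Max was at 12.4, 10.6 and 17.6 CPM with ethanol and at 13.8, 13.7 and 14.8 CPM in controls (log2 fold change -0.05, SE 0.195, adjusted p = 0.841, edgeR). Its groups overlapped. Of 20 Myc target genes for ribosome production, nucleotide synthesis and cell growth, none was called higher and 2 were called lower, namely Cad (-1.48), a pyrimidine synthesis gene, and Ccnd2 (-1.05), a cyclin gene, with a median log2 fold change of 0.10 (-0.57 with library size alone, which called 0 higher and 5 lower). The call of Ccnd2 was lost in 4 of the 6 fits that left out 1 library. Of the 20, edgeR called 1 higher and 1 lower without ethanol mouse 1, and also without control mouse 2. Without ethanol mouse 2 it called 1 higher and 2 lower. At an unadjusted p under 0.05, edgeR put 5 of the 20 higher and 4 lower, and limma on log2(FPKM + 1) put 0 higher and 15 lower. DESeq2 called 0 higher and 2 lower, limma on log2(FPKM + 1) called 0 higher and 3 lower, and edgeR with the trend with transcript length removed called 2 higher and 1 lower.

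Of 15 genes commonly listed as AP-1 targets, 12 were tested. Of these, 2 were called higher and 2 lower, where 10.4% and 13.8% of the genes tested were. With library size alone 1 was higher and 4 lower, without ethanol mouse 2 it was 2 and 0, and without ethanol mouse 3 it was 2 and 3. Plaur (4.52), the urokinase receptor gene, and Hmox1 (1.68), the heme oxygenase-1 gene, were higher. Ccl2 (-3.75), a monocyte chemokine gene with at most 0.0733 CPM in any ethanol mouse and 0.158 to 0.469 CPM in controls, and Cd44 (-1.02), the hyaluronan receptor gene, were lower. Ccl2 had 0, 0 and 4 counts with ethanol, so its fitted value rests on ethanol mouse 3 and was -7.66 without it. The calls of Ccl2 and Cd44 were each lost in 5 of the 6 fits that left out 1 library, all but the one without ethanol mouse 3. Plaur passed the filter on low counts through the ethanol libraries alone and Ccl2 through the controls alone. Plaur was at 2.42, 2.81 and 5.77 CPM with ethanol and at 0.0746, 0.197 and 0.206 CPM in controls. Like Ier3, both Plaur and Hmox1 were highest in ethanol mouse 3, as were 38.8% of all genes called higher. The summed neutrophil markers were highest in that mouse too, at 14.4 FPKM against 2.45 and 4.14 FPKM in ethanol mice 1 and 2, and their part in these values was not tested. The median log2 fold change of the AP-1 targets was -0.15 (-0.81 with library size alone). With 1 library left out it ranged from -0.67 (without ethanol mouse 2) to -0.04 (without control mouse 3).

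**Figure D4:**
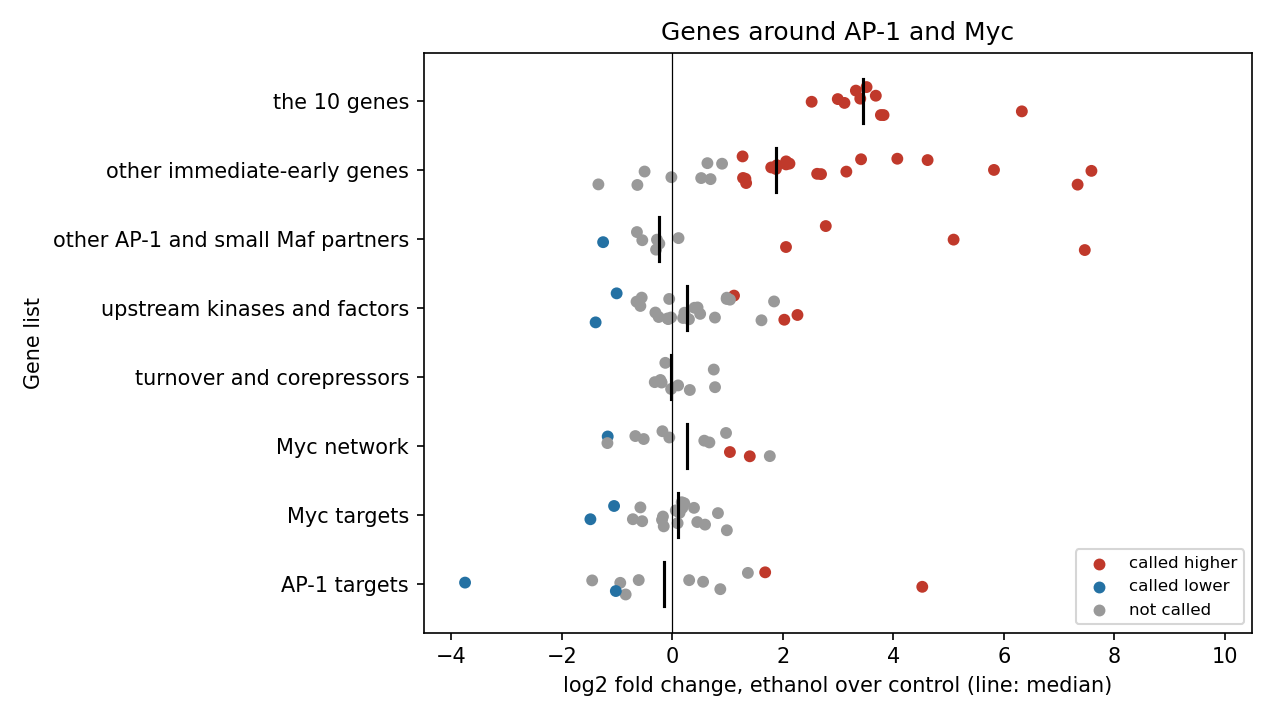
Fitted log2 fold change of ethanol over control for each tested gene of the 10 genes and 7 lists around them, with called genes in colour and the list median as a line. All 10 genes lie at 2.52 or above, the other immediate-early genes have a median of 1.88, and the medians of the other lists lie between -0.23 and 0.26.

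The genes most like Fos, Jun and Myc over the 6 libraries were found by Pearson's r of log2 CPM among 13797 tested genes with an established symbol, as a description of 6 libraries that share the group difference. For Jun they were Epha2 (0.998), Arl4a (0.997) and Zbtb21 (0.997), for Myc Bnip1 (1.000), Brap (0.999) and Ahr (0.998), and for Fos Ddx56 (0.986), Galnt1 (0.985) and Cx3cl1 (0.983). Such a match concerns shape and not size. Epha2, an ephrin receptor gene, had a log2 fold change of 2.88 and Ahr, the aryl hydrocarbon receptor gene, of 1.70. The 3 genes most like Fos had log2 fold changes of 0.24 to 0.62, and none of them was called.

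Facts of the libraries bear on all of these values. Each ethanol library held 71123046 to 74001784 counts and each control library 60514417 to 74210869, and counting error matters most for the genes with few counts in a group, such as Fosb, Fosl1, Plaur, Ccl2 and the neutrophil markers. TMM factors were 0.768 to 0.836 with ethanol and 1.26 to 1.27 in controls, and library size alone shifted the median of all genes to -0.71 on the log2 scale, with 9 of the 10 genes still called higher. Hepatocyte markers summed to 50450 to 55860 FPKM with ethanol and to 44000 to 50200 in controls. Beside the counts of called markers below, 10.4% of all genes tested were called higher and 13.8% lower. Of 5 tested neutrophil markers, 4 were called higher (S100a8, S100a9, Retnlg and Cxcr2), and the 6 listed markers summed to 2.45, 4.14 and 14.4 FPKM with ethanol and to 0.737 to 0.971 FPKM in controls. S100a8, Retnlg and Cxcr2 passed the filter on low counts through the ethanol libraries alone, so their calls are not independent of it, and the call of Cxcr2 was lost in 5 of the 6 fits that left out 1 library and that of Retnlg without control mouse 3. Ly6g, a defining neutrophil marker, was too low to be tested. The neutrophil sum was highest in ethanol mouse 3, where 9 of the 10 genes were lowest of the 3 ethanol mice and Ier3 was highest. Of all genes called higher, 47.8% were lowest and 38.8% highest in that mouse. Sinusoidal endothelial markers were called lower for 3 of 7 and higher for 1, macrophage markers higher for 1 of 8 (Cd68, where the median log2 fold change of the list was -0.32), stellate markers lower for 1 of 8, cholangiocyte markers higher for 1 of 6 and hepatocyte markers higher for 3 of 10. With library size alone, macrophage markers were called higher for 0 and lower for 4, stellate markers lower for 4 and hepatocyte markers higher for 1. Erythroid markers were higher for 2 of 3, T cell markers lower for 1 of 3 tested and B cell markers lower for 1 of 4, and no pancreatic marker was tested. Without ethanol mouse 2, macrophage markers were higher for 0, B cell markers lower for 0, and stellate markers higher for 1 and lower for 0. Without ethanol mouse 3, T cell markers were lower for 2, B cell markers lower for 0 and cholangiocyte markers higher for 2. The part of these cell types in the results above was not tested.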

How the data were processed

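Liver RNA was sequenced in 3 ethanol and 3 control mice on an Illumina NovaSeq in paired-end mode. The authors deposited a whole-number count per gene, not normalized, and an FPKM value beside it, scaled to transcript length and library size. The authors removed adaptor, low-quality and ambiguous reads. The aligner, the counter and the strand setting are not given in the sources used here. The submitters' processing notes name GRCm38 and mm10, but only 558 of 27049 shared genes start where GENCODE M21 places them, so table coordinates are given as deposited, and GRCm38.p6 is used for RefSeq promoters alone. The deposited file held 1 column of counts that matched no labelled library and was not used.

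Counts were filtered by filterByExpr, scaled by TMM and compared without covariates in R 4.3.3 (edgeR 4.0.16, limma 3.58.1, DESeq2 1.42.0) by the quasi-likelihood test of edgeR, two-sided, with Benjamini-Hochberg adjustment over all 16717 genes tested. The limits for a call, an adjusted p of 0.05 and a log2 change of 1, were the study's. The square root of the common dispersion was 0.299. Summed FPKM and shares were compared by exact permutation over mice. The scripts were tested on simulated data. P-values set the difference between the groups against the spread between these mice.

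The 10 genes and all lists were chosen with earlier results of these data known. The result of 1 further list is not reported here. From each list, up to 4 called genes with the largest change were named, plus genes whose role a sentence needed (Max, Fosl1 and Srf) and those said to be picked after their values were seen, and 3 genes most like Fos, Jun and Myc. Library size alone, upper quartile, median-ratio and length-corrected scaling, other filters, limma on log2(FPKM + 1) and log2(FPKM + 0.1) above a mean FPKM of 0.1, DESeq2, the replicate number as a block and each library left out in turn were alternatives. Deviations of same-numbered mice correlated at -0.0349, -0.0211 and -0.0169, and those of differently numbered mice at -0.00675 to 0.0293. No pairing by number was seen, which does not exclude one.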

Additional observations from a re-analysis of the deposited data

How the results depend on the processing

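Under 16 other settings, the 10 genes gave 157 log2 fold changes, of which none was negative and 145 were called. The 12 that were not called were all of Fos, which ranged from 1.14 to 2.99 with adjusted p from 0.00699 to 0.159, and the cause was not tested. Fosb was not tested in 3 settings that filter on FPKM. With each library left out, 9 to 10 of the genes were called higher, 0 lower, and 3205 to 4822 of all genes were called, against 4039 with all libraries. The count of all genes called was 6231 with library size alone, 2186 with a mean FPKM of at least 1, where 9608 genes were tested, 2121 with limma on log2(FPKM + 1) and 5717 with limma on log2(FPKM + 0.1), both over 16007 genes, and 7189 with no limit on the fold change.

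With the replicate block, 9 of the 10 genes were called higher, the log2 fold change of Fos was 2.43 (adjusted p = 0.0578, edgeR) and 3518 genes were called in all. The difference in the Fosl2 share of the AP-1 pool, which was 0.0366 percentage points, ranged from -0.0154 (without ethanol replicate 2, exact permutation p = 0.8) to 0.117 (without ethanol replicate 3) with each library left out, and its direction was not resolved. Fosb and Fosl1 had low counts, and the part of counting error in the Fosb value was not tested. For the 10 genes, Fosb included, the 3 mice per group limit the precision.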
